A study of Mus musculus with 19 samples.

Results

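Mitochondrial carriers of the SLC25 family were taken as every array probe whose gene symbol begins with Slc25a and a digit, without Slc25a20, the carrier of carnitine and acylcarnitines. The rule found 55 probes for 39 genes among 46643 probes for 34509 gene symbols on the array. The hearts came from 19 FVB/N mice, with 1 Illumina bead array per animal. There were 5 CCM and 4 wild-type (WT) animals on a high fat diet and 5 CCM and 5 WT animals on a normal diet. CCM is the transgenic line whose cardiomyocytes have no working circadian clock. It is known to express a dominant-negative form of CLOCK from a cardiomyocyte promoter, so other heart cells keep their clock. Both diets were given for 16 weeks, and all hearts were taken at ZT 18, in the active phase. A single time of day cannot separate a changed level from a shifted daily rhythm. The labels give neither sex nor age.

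SLC25 proteins sit mainly in the inner mitochondrial membrane and exchange solutes between the matrix and the cytosol. The family holds the exchangers of ADP and ATP and of phosphate, the carriers of the malate-aspartate shuttle, and importers of amino acids, nucleotides, vitamin cofactors and iron. Heart muscle depends on them because most of its ATP is made in mitochondria and used outside them.

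Values below are log2 normalized signals, and differences are on the same log2 scale, so a difference of 1 is a doubling. A difference was called when limma's adjusted p, over all 19840 probes detected on at least 4 of 19 arrays, was under 0.05. Errors after a difference are standard errors, and those after a mean are SDs. Mean signal per array was 418.7 to 580.4, and 17117 to 18731 probes were detected per array. The genotype labels were checked first. The Clock probe ILMN_2600964 read 14.96 to 15.48 in the 10 CCM hearts and 6.16 to 8.40 in the 9 WT hearts, without overlap. All 8 cardiomyocyte markers were detected on every array, and none of their 12 tested probes was called in any genotype comparison. Their summed signal was 271447 to 297130 in CCM and 265938 to 296265 in WT hearts on the high fat diet, and 278093 to 289328 in CCM and 284349 to 301628 in WT hearts on the normal diet. Among markers of other cell types, the called probes belonged to Acta2 of smooth muscle and Cidea of brown fat. On average over diets, both called Acta2 probes were lower in CCM, by -0.63 and -0.49 (limma adjusted p = 0.0363 and 0.02), and Cidea was higher by 0.39 (limma adjusted p = 0.0131). Cidea was also higher on high fat, by 0.70 (limma adjusted p = 0.00148), while Ucp1, which defines brown fat, was detected on no array. The part of these cell types in the carrier values was not tested.

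Of the 55 carrier probes, 35 were detected on all 19 arrays and 39 were tested. The tested probes covered 31 genes, and 8 of these had more than 1 tested probe. No array detected Slc25a2, Slc25a16, Slc25a18, Slc25a21, Slc25a41 or Slc25a43. For Slc25a31 and Slc25a40, 1 probe each was detected on 1 array. Slc25a31 is the adenine nucleotide translocase known from testis, Slc25a18 a glutamate carrier and Slc25a21 an oxoadipate carrier. A probe that was not detected gives no more than an upper limit on its transcript. Another 16 probes on the array belong, under other symbols, to genes now named Slc25a and a number. The uncoupling proteins, of the same family by sequence, are not among them and are described below. Of the 16 probes under other symbols, 7 were tested, and none was called in any comparison.

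Mitoferrin 1 was the sole carrier called between genotypes. Mitoferrin 1, encoded by Slc25a37, brings iron into mitochondria for haem and iron-sulphur clusters and is best known from developing red cells. On the normal diet Slc25a37 read 7.70, 8.43, 8.06, 7.99 and 7.90 in CCM hearts, against 8.61, 8.95, 8.61, 8.68 and 8.95 in WT hearts. Every CCM heart was below every WT heart. The means were 8.02 ± 0.27 in CCM and 8.76 ± 0.18 in WT (SD, n = 5 each). The difference of -0.74 ± 0.16 (95% interval -1.08 to -0.41) was a level 1.68-fold lower in CCM, with a limma adjusted p of 0.0175. It was 1 of 39 tested carrier probes, while 1.45% of all probes were called on this diet, 0.887% as lower. The groups of 1.41% of all probes also stood apart with CCM lower. In whole hearts, fewer cells of a type and less RNA per cell cannot be told apart.

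On the high fat diet Slc25a37 read 8.61, 7.72, 7.91, 8.52 and 8.36 in CCM hearts, against 8.59, 8.81, 8.58 and 8.65 in WT hearts. Of the CCM hearts, 1 lay within the WT range and 4 lay below it. The difference was -0.43 ± 0.17 with a limma adjusted p of 0.367, so it was not called, and 1.59% of all probes were called in this comparison. The genotype differences on both diets were not shown to differ from each other, with an interaction of 0.32 ± 0.23 and a limma adjusted p of 1. Averaged over both diets, Slc25a37 was lower in CCM by -0.59 ± 0.12 with a limma adjusted p of 0.00433. In this average 4.15% of all probes were called, 2.17% as lower, and Slc25a37 was again the only one of the 39 carrier probes. The call on the normal diet was lost without CCM replicate 1 (adjusted p = 0.0629), without WT replicate 2 (adjusted p = 0.0582) or without WT replicate 5 (adjusted p = 0.0572) of that diet, and with each array shifted by a constant to equal medians in place of quantile normalization (-0.70, adjusted p = 0.0763). The average kept its call without any 1 of the 19 animals, with adjusted p from 0.0018 to 0.013.

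**Figure D1:**
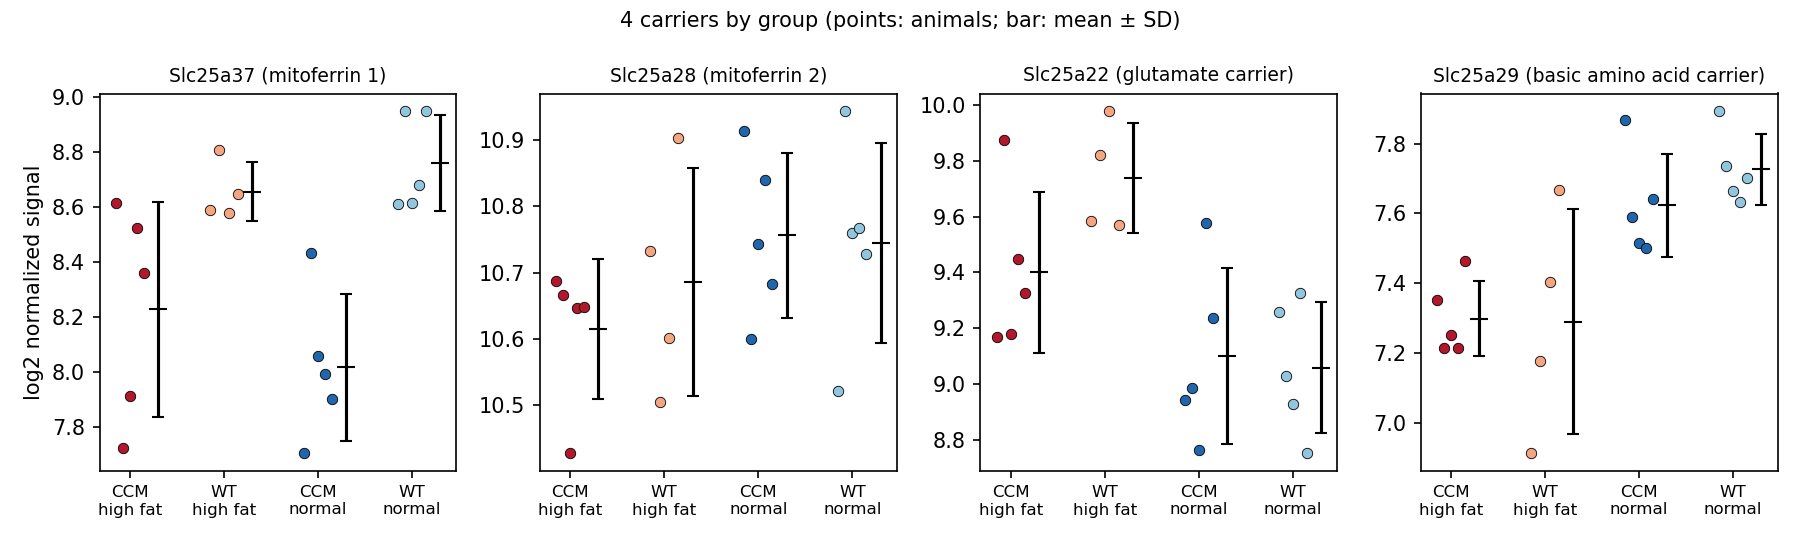
Log2 normalized signal (y axis) of 4 carriers in the 4 groups (x axis), with 1 point per animal and bars for mean ± SD. For Slc25a37 the 5 CCM hearts on the normal diet lie at 7.70 to 8.43, below the 5 WT hearts at 8.61 to 8.95, while the Slc25a28 groups overlap. For Slc25a22 the WT hearts on high fat (9.57 to 9.98) lie above those on normal diet (8.75 to 9.33).

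The other iron and glutathione carriers gave no call. Slc25a28 encodes mitoferrin 2, the iron importer used by most tissues. It read 10.69, 10.67, 10.43, 10.65 and 10.65 in CCM and 10.73, 10.50, 10.60 and 10.90 in WT hearts on high fat. On normal diet it read 10.91, 10.60, 10.74, 10.84 and 10.68 in CCM and 10.52, 10.94, 10.76, 10.77 and 10.73 in WT hearts. The groups overlapped on each diet. The genotype difference averaged -0.03 (95% interval -0.18 to 0.12). Slc25a39, a carrier linked to glutathione import and haem synthesis, differed by 0.05 (95% interval -0.06 to 0.16) between genotypes on average. Slc25a38, the glycine carrier that feeds haem synthesis, had intervals on both sides of 0 in every genotype comparison.

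Red cell transcripts also had lower means in CCM on the normal diet. Of 10 erythroid markers, 9 had probes on the array and 6 were tested, with 15 probes. Epb4.2 and Hemgn were detected on no array. On the normal diet all 15 erythroid probes had lower means in CCM, with a median difference of -0.57, and none was called. Of these probes 10 belong to Hbb-b1, a beta globin, so they are not independent. The median over all tested probes was 0.01. On the high fat diet 11 of the 15 were lower in CCM, with a median of -0.08. Between high fat and normal diet, all 15 had higher means on high fat in CCM hearts, with a median of 0.51. In WT hearts 10 of the 15 did, with a median of 0.13, and none was called in either genotype. The summed erythroid signal was 300041 to 371993 in CCM and 342838 to 394039 in WT hearts on high fat, and 183760 to 313933 in CCM and 285444 to 385657 in WT hearts on normal diet. These sums overlap on each diet. On normal diet Alas2, the erythroid enzyme that starts haem synthesis, differed by -0.71 ± 0.22 (limma adjusted p = 0.179). Slc4a1, the anion exchanger of the red cell membrane, differed by -0.69 ± 0.27 (limma adjusted p = 0.385), and the alpha globin Hba-a1 by -0.61 ± 0.17 (limma adjusted p = 0.106).

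Slc25a37 followed Slc4a1 from animal to animal within each genotype. Of 10 relations computed, 5 markers in each genotype, Slc4a1 gave r = 0.844 and rho = 0.818 over the 10 CCM hearts, with permutation p of 0.00332 and 0.0052. Adjusted over the 10 relations these were 0.0332 and 0.052. Over the 9 WT hearts r was 0.823 and rho 0.683, with exact permutation p of 0.0106 and 0.0503 and adjusted values of 0.0375 and 0.126. Without the 2 hearts farthest from the median of Slc4a1, r was 0.847 in CCM and 0.746 in WT. Alas2 gave r = 0.784 in CCM (permutation p = 0.0113, adjusted 0.0375, rho = 0.685 with permutation p = 0.0354 and adjusted 0.118) and r = 0.415 in WT (exact permutation p = 0.258, adjusted 0.323, rho = 0.333 with exact permutation p = 0.385 and adjusted 0.482). Hbb-b2 and Hba-a1 had r of 0.731 and 0.554 in CCM hearts and 0.554 and 0.0922 in WT hearts, and of these only Hbb-b2 in CCM had a permutation p under 0.05 for r after adjustment (0.0386). Each genotype pools both diets. Within the 6 CCM hearts numbered under 20 in the labels r was 0.913 for Slc4a1 and 0.701 for Alas2, and the other combinations of genotype and animal number held fewer than 6 hearts. The part of red cell RNA in the Slc25a37 difference was not tested.

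**Figure D2:**
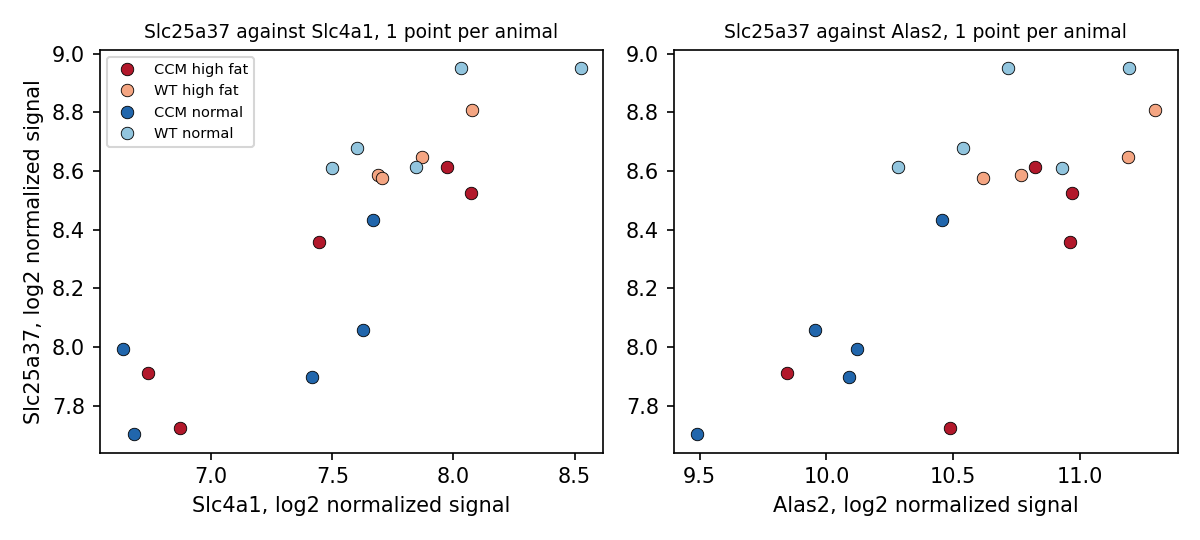
Slc25a37 (y axis) against the red cell transcripts Slc4a1 and Alas2 (x axes), all as log2 normalized signal, with 1 point per heart coloured by group. Hearts high in Slc4a1 were high in Slc25a37 within both genotypes (r = 0.844 over 10 CCM and r = 0.823 over 9 WT hearts).

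The carriers of ADP, ATP and phosphate had 7 tested probes for 6 genes, and none was called in any comparison. Slc25a4 and Slc25a5 encode adenine nucleotide translocases, which export ATP for ADP, and Slc25a4 is the one typical of heart. Slc25a5 read 14.41, 14.41, 14.43, 14.47 and 14.47 in CCM hearts on high fat, against 14.39, 14.33, 14.35 and 14.34 in WT hearts. These groups did not overlap, but the difference was 0.09 ± 0.08 (limma adjusted p = 0.84), and 2.29% of all probes stood apart with CCM higher. Averaged over diets, the genotype difference of Slc25a5 had a 95% interval of -0.06 to 0.16. Slc25a3, the phosphate carrier, differed by -0.10 ± 0.17 between genotypes and by 0.18 ± 0.17 between high fat and normal diet. Among the ATP-Mg and phosphate carriers, Slc25a23 differed by 0.21 between genotypes on normal diet and Slc25a25 by -0.37 on high fat, with limma adjusted p of 0.936 and 0.835. Leaving out 1 animal at a time moved Slc25a23 between 0.06 and 0.33 and Slc25a25 between -0.58 and -0.20, and in animals numbered under 20 in the labels Slc25a23 was at -0.03.

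Slc25a4 differed far more between animals of one group than between groups. Its probe ILMN_1225312 read 10.27, 10.23, 10.18, 9.12 and 9.30 in CCM and 10.20, 9.88, 9.15 and 9.18 in WT hearts on high fat. On normal diet it read 10.31, 10.45, 10.41, 9.54 and 9.25 in CCM and 10.06, 10.21, 9.23, 9.27 and 9.05 in WT hearts. All 9 animals numbered over 20 in the labels lay at 9.05 to 9.54, and all 10 numbered under 20 at 9.88 to 10.45, in each of the 4 groups. The difference, over 20 minus under 20 within groups, was -0.96 ± 0.06, given without a test because this split was chosen after values were seen. The labels do not say what the numbers stand for. Slc25a13, an aspartate-glutamate carrier named here after its values were seen, split likewise. Its probe ILMN_2590896 lay at 8.75 to 9.06 in animals over 20 and at 9.10 to 9.75 in those under 20, a difference of -0.44 ± 0.07. These 2 of 39 carrier probes stood apart, against 2.49% of all probes, and 4 of 39 differed by at least 0.4, against 7.58% of all probes. The further probes of both genes had differences of the same sign, -0.46 ± 0.22 for Slc25a4 and -0.65 ± 0.15 for Slc25a13, with overlap. The accession of that further Slc25a4 probe is not in the reference, so what it measures is less certain.

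**Figure D3:**
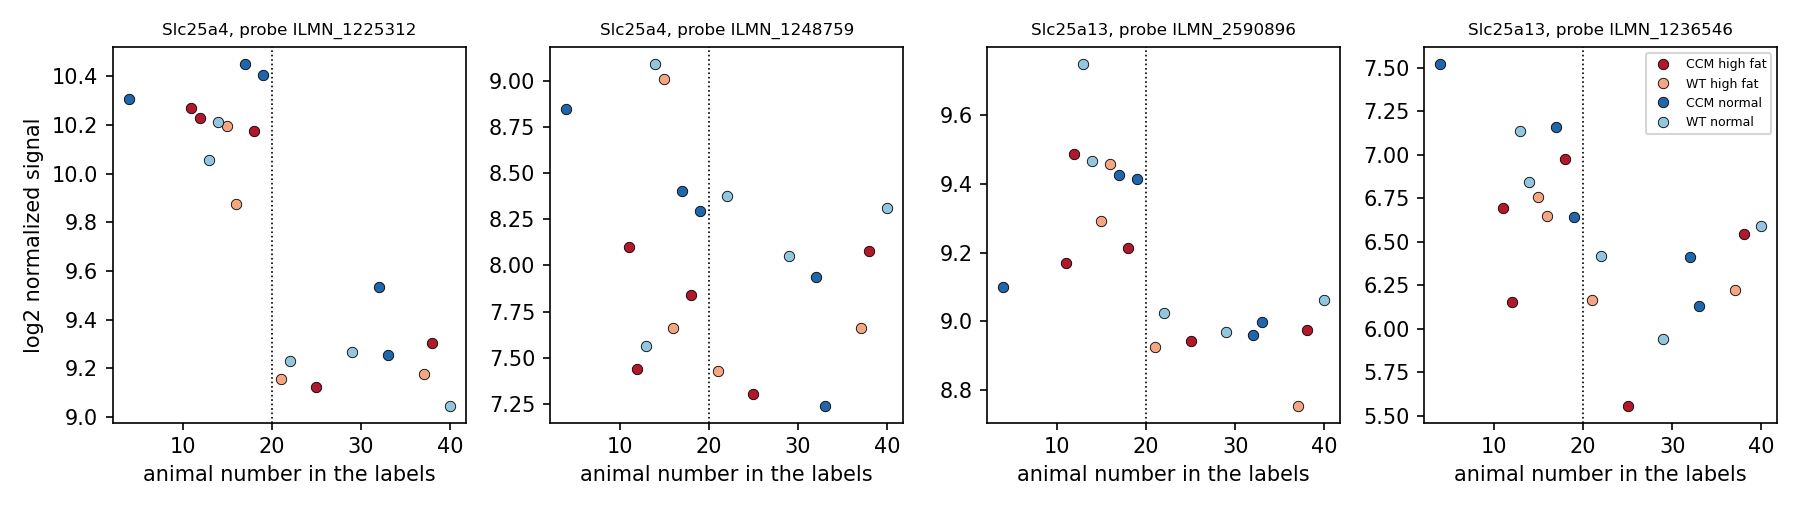
Log2 normalized signal (y axis) of both probes of Slc25a4 and both probes of Slc25a13 against the animal number in the labels (x axis), with 1 point per heart coloured by group and a dotted line at 20. Slc25a4 probe ILMN_1225312 lies at 9.05 to 9.54 over 20 and at 9.88 to 10.45 under 20, whatever the group.

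Each group held animals on both sides of that line. With animal number as a block, the genotype difference of Slc25a4 probe ILMN_1225312, averaged over diets, was 0.18 (limma adjusted p = 0.11), against 0.32 ± 0.23 (limma adjusted p = 0.682) without it. The further Slc25a4 probe had the opposite sign, at -0.23 with the block (limma adjusted p = 0.748) and -0.16 without it (limma adjusted p = 0.913). Slc25a37 hardly differed by animal number, at 0.04 ± 0.12. With the block its normal-diet difference was -0.74 (limma adjusted p = 0.0222). Within the animals over 20 it was -0.80 (adjusted p = 0.057) and within those under 20 -0.72 (adjusted p = 0.375), neither of them called.

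Carriers of nucleotides, coenzyme A and vitamin cofactors had 8 tested probes for 6 genes, and none was called. The pyrimidine nucleotide carriers Slc25a36 and Slc25a33 supply mitochondria with the nucleotides needed for their own DNA and RNA. For the Slc25a36 probe ILMN_1245421, hearts on normal diet read 8.55, 8.05, 7.96, 8.06 and 7.77 in CCM and 7.40, 8.06, 7.57, 7.38 and 7.99 in WT. The groups overlapped, and the difference of 0.40 ± 0.17 had a limma adjusted p of 0.448. A further Slc25a36 probe differed by 0.11 ± 0.14, and a probe of this gene under another symbol by 0.15 ± 0.13. On high fat the latter differed by 0.33 ± 0.14 (limma adjusted p = 0.418). Its groups did not overlap there, as was so for 2.29% of all probes with CCM higher. Slc25a33 on normal diet read 8.01, 8.41, 8.49, 8.96 and 9.05 in CCM and 9.41, 8.47, 8.91, 9.05 and 8.89 in WT hearts. These groups overlapped too, with a difference of -0.36 ± 0.20 and a limma adjusted p of 0.691. Slc25a17, a peroxisomal carrier of coenzyme A and related cofactors, differed by -0.31 on high fat (limma adjusted p = 0.488), and by -0.38 to -0.18 with 1 animal left out at a time. A probe under its other symbol Pmp47, detected on 11 arrays, differed by 0.12 ± 0.11 on high fat. The reference does not give the accession of that probe to Slc25a17.

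The promoters of Slc25a36 and Slc25a33 are shown as 2 of 7 carrier genes with the canonical E-box CACGTG, chosen with their values known. CLOCK and its partner BMAL1 are known to bind this site. Averaged over diets, the genotype differences were 0.34 ± 0.12 for Slc25a36 probe ILMN_1245421 and -0.34 ± 0.14 for Slc25a33, neither called. The sequences are RefSeq's for assembly GRCm38.p6, a reference of another strain than FVB/N, from 250 bases before to 50 after the transcript start, with the E-box in capitals. The Slc25a36 window is chr9:97110992-97111291 on the minus strand and the Slc25a33 window chr4:149774218-149774517 on the minus strand.
Slc25a36: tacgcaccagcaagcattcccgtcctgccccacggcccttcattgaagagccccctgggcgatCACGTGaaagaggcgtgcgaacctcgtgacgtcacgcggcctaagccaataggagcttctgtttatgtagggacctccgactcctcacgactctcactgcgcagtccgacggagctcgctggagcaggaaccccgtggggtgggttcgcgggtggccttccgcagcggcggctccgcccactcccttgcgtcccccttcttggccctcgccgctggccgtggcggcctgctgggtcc
Slc25a33: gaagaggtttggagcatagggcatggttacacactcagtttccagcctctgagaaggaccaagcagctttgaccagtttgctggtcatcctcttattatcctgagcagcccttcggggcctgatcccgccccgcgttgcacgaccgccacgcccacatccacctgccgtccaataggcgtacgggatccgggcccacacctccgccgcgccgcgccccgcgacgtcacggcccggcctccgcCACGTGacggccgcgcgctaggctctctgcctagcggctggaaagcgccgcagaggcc
Windows were counted for 29 of the 39 genes, 38 windows in all. The count did not take in every gene, so a gene without a counted window may still have one. The palindrome CACGTG stood in 8 of the 38 carrier windows (21.1%) and in 7.15% of the 32851 windows counted in total. Its carrier windows belonged to 7 genes (Slc25a1, Slc25a13, Slc25a14, Slc25a15, Slc25a31, Slc25a33 and Slc25a36). The D-box TTATGTAA, bound by PAR bZIP factors and searched on both strands, stood in 0 of 38 carrier windows and 0.94% of all counted windows. The GATA motif AGATAA, also on both strands, stood in 2 carrier windows (5.3%) and 11.18% of all counted windows. The 3 motifs differ in their letters, and a match is not evidence of binding. Of the 9 tested probes of genes with CACGTG, 6 had higher and 3 lower means in CCM, averaged over diets, and none was called.

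Carriers of di- and tricarboxylates and of the malate-aspartate shuttle gave no call. Slc25a11, the oxoglutarate-malate carrier of that shuttle, had probes that differed by 0.02 ± 0.08 and 0.08 ± 0.14 between genotypes on average. Slc25a12, the aspartate-glutamate carrier typical of heart and skeletal muscle, differed by -0.03 ± 0.13 (95% interval -0.30 to 0.23). Slc25a35, whose substrate is less well known, differed by -0.33 between genotypes on high fat (limma adjusted p = 0.544), and by -0.47 to -0.21 with 1 animal left out at a time. A further probe of this gene, under another symbol, differed by -0.002 on high fat. That probe was detected on 6 of 19 arrays, 0 of them on high fat. Slc25a1, the citrate carrier that exports citrate for fatty acid synthesis, differed by -0.17 between high fat and normal diet in WT hearts, with a limma adjusted p of 1. That value ran from -0.27 to -0.04 with 1 animal left out at a time, and was 0.03 in animals over 20 and -0.50 in animals under 20, so no direction can be read from it. The uncoupling-protein-like carriers had 4 tested probes for 3 genes and no call. The Slc25a30 probe ILMN_2675523 differed by 0.31 between high fat and normal diet in CCM hearts (limma adjusted p = 0.606, 0.20 to 0.39 with 1 animal left out). The further Slc25a30 probe, also detected on all arrays, differed by -0.16 there, so the probes of this gene disagreed in sign. Slc25a14 differed by 0.16 between diets in WT hearts, and Slc25a27 by -0.05 between genotypes on normal diet. Slc25a46, an outer membrane protein of mitochondrial dynamics, differed by 0.18 between genotypes on high fat (limma adjusted p = 0.755), and by 0.09 to 0.24 with 1 animal left out at a time. Under another symbol, a further Slc25a46 probe also differed by 0.18 on high fat (limma adjusted p = 0.744). It differed by 0.33 ± 0.11 on normal diet (limma adjusted p = 0.251) and by 0.25 ± 0.08 on average (limma adjusted p = 0.11), without a call. Slc25a45, without an agreed substrate, differed by -0.09 on normal diet.

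By role, genotype differences averaged over diets ran from -0.22 to 0.32 for the adenine nucleotide, phosphate and ATP-Mg carriers and from -0.34 to 0.34 for the nucleotide and cofactor carriers. They ran from -0.22 to 0.08 for the di- and tricarboxylate carriers, from -0.15 to 0.06 for the amino acid carriers and from -0.21 to 0.08 for the uncoupling-protein-like carriers. Among roles with several probes the amino acid carriers lay closest together, and the iron and glutathione carriers, at -0.59 to 0.05, held the one called probe. Between high fat and normal diet the amino acid carriers were the most spread, from -0.38 to 0.49, and the nucleotide and cofactor carriers ran from -0.08 to 0.20.

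**Figure D4:**
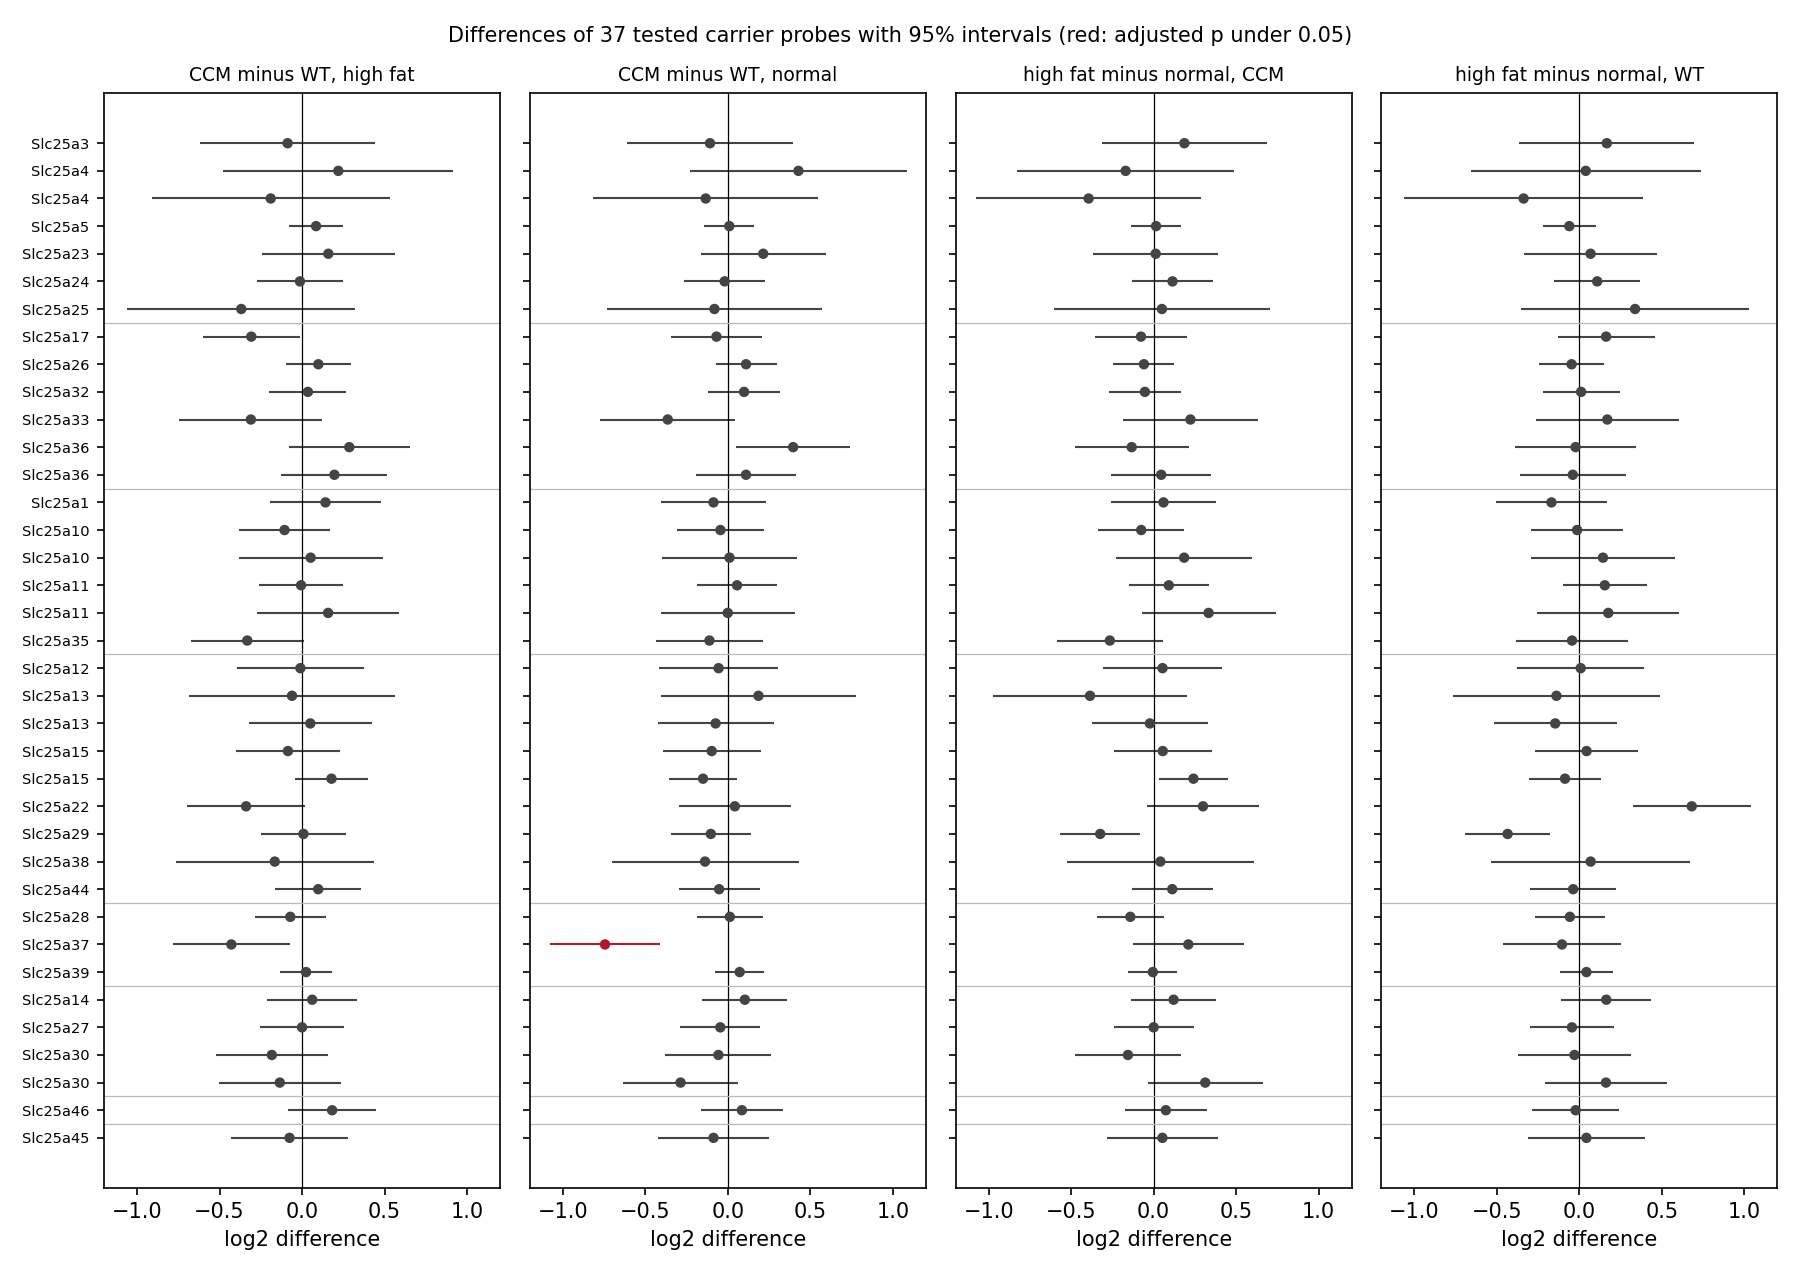
Log2 differences (x axis) of 37 of the 39 tested carrier probes (rows, named by gene and grouped by role between grey lines) in 4 comparisons, with points for the fitted difference and lines for its 95% interval. Red marks an adjusted p under 0.05, which only Slc25a37 reached, in CCM minus WT on the normal diet (-0.74).

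The high fat diet called none of the 39 tested carrier probes in either genotype or on average. Over all probes it called 0.0151% in CCM hearts, 0.0252% in WT hearts and 0.237% on average, so few calls of any kind were made. The carriers nearest to a call belonged to amino acid transport, a role with 9 tested probes for 7 genes. Slc25a22 carries glutamate with a proton into the matrix. In WT hearts it read 9.58, 9.82, 9.98 and 9.57 on high fat, against 9.26, 9.03, 8.93, 9.33 and 8.75 on normal diet. All WT hearts on high fat lay above those on normal diet, as did those of 0.756% of all probes. The difference of 0.68 ± 0.17 (95% interval 0.32 to 1.04) had a limma adjusted p of 0.434. CCM hearts read 9.17, 9.87, 9.18, 9.45 and 9.33 on high fat, against 8.94, 8.99, 8.76, 9.58 and 9.24 on normal diet, with overlap. Their difference was 0.30 ± 0.16, and the average over genotypes was 0.49 ± 0.12 (limma adjusted p = 0.125).

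Slc25a29, a carrier of basic amino acids such as arginine and lysine, ran the other way. It read 7.35, 7.22, 7.25, 7.21 and 7.46 in CCM hearts on high fat, against 7.87, 7.59, 7.51, 7.50 and 7.64 on normal diet. Every CCM heart on high fat was below every CCM heart on normal diet, as was so for 0.716% of all probes. The difference was -0.32 ± 0.12 (limma adjusted p = 0.589). In WT hearts it read 6.91, 7.18, 7.40 and 7.67 on high fat, against 7.89, 7.74, 7.66, 7.63 and 7.70 on normal diet, and here the groups overlapped. The WT difference was -0.44 ± 0.12 (limma adjusted p = 0.722), and the average over genotypes was -0.38 ± 0.08 (95% interval -0.56 to -0.20, limma adjusted p = 0.0825). Both were larger in animals numbered under 20, at -0.77 in WT and -0.58 on average. In animals over 20 they were -0.13 and -0.18, and none of these was called. The probe ILMN_3163476 of Slc25a15, the ornithine carrier of the urea cycle, differed by 0.24 between diets in CCM hearts (limma adjusted p = 0.589). That probe was detected on 16 of 19 arrays, and on 3 of the 5 CCM hearts on normal diet. The further Slc25a15 probe, detected on all arrays, had CCM means of 7.96 ± 0.21 on high fat and 7.91 ± 0.32 on normal diet.

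The diet effect was not shown to differ between genotypes for any carrier. No probe of the 19840 was called for the interaction by limma, and 2.58% had an unadjusted p under 0.05. Among them was 1 carrier probe, ILMN_3163476 of Slc25a15, while the further probe of that gene was not. Of the 8 genes with more than 1 tested probe, 3 had probes of the same sign in the genotype average and 5 in the diet average. Across the 39 carrier probes the median genotype difference was -0.05 on normal diet and 0.00 on high fat, beside 0.01 and 0.00 over all probes. The median diet difference was 0.05 in CCM and -0.01 in WT hearts, beside 0.00 and 0.00 over all probes. On normal diet 87.2% of the carrier probes differed by less than 0.25 between genotypes, and so did 87.1% of all probes. An unadjusted p under 0.05 was found for 2 of 39 carrier probes (5.13%) in each genotype comparison, beside 8.67% of all probes on normal diet and 9.58% on high fat, and for 3 (7.69%) in their average, beside 13.1%. Between diets it was 2 of 39 in CCM hearts, in WT hearts and on average, beside 8.45%, 2.97% and 7.89% of all probes. For the average over diets, the 95% interval lay within 0.5 on both sides of 0 for 32 of 39 carrier probes and within 1 for all 39.

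Proteins related to these carriers or working beside them were described from lists. The related ones were the uncoupling proteins, of the SLC25 family by sequence, and the carrier-like outer membrane proteins Mtch1 and Mtch2. The others were malate-aspartate shuttle enzymes, the pyruvate carrier, the calcium uniporter, Vdac channels, import factors, sideroflexins and mitochondrial kinases. The lists held 46 tested probes. In the genotype average 2 of the 46 were called (4.35%), a share near the 4.15% of all probes, and in the diet average 1 was called (2.17%), beside 0.237% of all probes. Ucp3, the muscle uncoupling protein that rises with fatty acid supply, was higher on high fat by 1.03 ± 0.20 (limma adjusted p = 0.029) on average over genotypes for a probe detected on 12 of 19 arrays. Its further probe, detected on 8 arrays, differed by 0.96 ± 0.25 (limma adjusted p = 0.213). Sfxn4, a sideroflexin of the mitochondrial membrane linked to iron-sulphur clusters, was lower in CCM by -0.30 ± 0.06 (limma adjusted p = 0.00314) on average over diets for 1 of its probes, while the other differed by -0.06 ± 0.12. Ak3, the matrix GTP-AMP kinase, was lower by -0.29 ± 0.08 (limma adjusted p = 0.0334) for 1 probe and differed by -0.16 ± 0.14 for the other. No other probe of these lists was called in any of the 7 comparisons.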

How the data were processed

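Total RNA of 19 hearts was hybridised to bead arrays. The authors deposited unnormalized bead intensities (linear scale) with the p-value of each detection call, per the file headers. BeadStudio 3 was used, per the submitters' processing notes. The authors also deposited normalized intensities, by a method not given in the sources used here, which served as an alternative.

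From the unnormalized intensities, neqc in limma 3.58.1 (R 4.3.3) corrected background (normexp from detection p-values, offset 16) and quantile normalized the arrays. Probes with a detection p under 0.05 on at least 4 of 19 arrays were kept, and each probe was tested on its own. A mean per group was fitted with lmFit and eBayes over all 19 animals, 7 contrasts were tested (two-sided), and p was adjusted by Benjamini-Hochberg over 19840 probes. Dim probes understate fold changes. The procedure was tested on simulated data. Each array is a separate animal, so p-values measure the spread between animals, animal and array variation together, and the number of arrays limits the precision. Permutation tests used scipy 1.17.1, exact for 9 hearts and with 100000 resamples for 10, on the erythroid markers with exactly 1 probe detected on all arrays.

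Carriers and gene lists were chosen with earlier results of these data known. Named were every called carrier, the 3 of smallest p per role in the 4 comparisons of pairs of groups, and Slc25a3, Slc25a4, Slc25a5, Slc25a11 and Slc25a12, and Slc25a33 and Slc25a38 were added with their values known. Of 55 carrier probes, 52 had an accession that the reference gives to the same gene. Alternatives were other normalizations, filters, 1 probe per gene, trended and robust eBayes, array weights, 2-group fits, blocks by animal number and leaving out arrays. Within-group correlations of arrays were 0.963 to 0.993. A few named items are not reported here.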

Additional observations from a re-analysis of the deposited data

Results flagged for a closer look

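Of 100 pairs of a carrier probe and a group, 3 had an animal far from the rest of its group by Dixon's ratio, and chance flags about 1 in 20 such groups. Slc25a28 read 10.43 in 1 CCM heart on high fat and 10.65 to 10.69 in the other 4. The further Slc25a4 probe read 9.01 in 1 WT heart on high fat and 7.43 to 7.66 in the other 3. The Slc25a11 probe ILMN_2600053 read 7.81 in 1 WT heart on normal diet and 8.43 to 8.65 in the other 4.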

How the results depend on the processing

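The count of carrier probes called on the normal diet, 1 (Slc25a37), fell to 0 with each array shifted by a constant to equal medians (difference -0.70, adjusted p = 0.0763), and in animals over 20 or under 20 alone. Leaving out 1 animal at a time gave 0 to 1. For the genotype average the count of 1 fell to 0 in animals over 20 (-0.49, adjusted p = 0.0787) and under 20 (-0.67, adjusted p = 0.201), fits chosen after seeing the data and with fewer animals. With array weights the diet counts of 0 became 1 in WT hearts (Slc25a22, 0.82, adjusted p = 0.0401) and 2 on average (Slc25a22, 0.55, adjusted p = 0.0182, and Slc25a29, -0.36, adjusted p = 0.0284). Leaving out 1 animal at a time gave 0 to 1 for the diet average: Slc25a22 without CCM replicate 4 on normal diet (0.55, adjusted p = 0.0481) and Slc25a29 without WT replicate 4 on high fat (-0.44, adjusted p = 0.0149). The cause of these changes was not tested. No called difference changed sign. Over all probes the normal-diet count of 287 became 163 with the constant shift, 176 with 2 groups fitted alone, and 75 and 77 in animals over and under 20. The high fat count of 316 became 206 with the constant shift (37 higher and 169 lower, against 137 and 179), 189 without the 3 dimmest arrays, and 39 and 83 in animals over and under 20. The genotype average of 823 became 474 with the constant shift (175 higher and 299 lower, against 393 and 430), and 173 and 245 in animals over and under 20. The diet average of 47 became 222 with array weights, 72 with the animal-number block, 14 without the 3 dimmest arrays, 13 with the constant shift, 0 in animals over 20 and 2 under 20, and the diet counts of 3 in CCM and 5 in WT ran from 0 to 13 and from 0 to 20. The constant shift moved the median interaction over all probes to -0.13, against -0.01. No paired analysis was possible because the animal numbers in the labels are unique and pair no animals across groups.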
